A study of Mus musculus with 30 samples.

Results

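The aryl hydrocarbon receptor pathway was followed here through 8 genes out of the 48440 genes counted, in 30 mouse fibrosarcomas grown from 5 tumor cell lines. The genes were taken by symbol: the receptor Ahr, its partner Arnt, its repressor Ahrr, and the target genes Tiparp, Cyp1a1, Cyp1a2, Cyp1b1 and Aldh3a1. All 8 had a row in the count table, and 6 passed the filter on low counts. Each line had been derived from 1 tumor induced in mice with the carcinogen methylcholanthrene (MCA), and the lines were then injected under the skin of mice, a step whose methods name no further MCA. Hematopoietic cells were removed from the dissociated tumors with CD45 beads before RNA extraction.

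MCA-943 (4 tumors) and MCA-969 (8 tumors) were classed by the study as non-sensitive to NK1.1+ cells, and MCA-948 (8 tumors), MCA-970 (6 tumors) and MCA-972 (4 tumors) as sensitive. All tumors carry the background C57BL/6 in their labels. The strain is labelled Ncr1Cre for the 4 MCA-943 tumors and Ncr1Cre R26DTA for the other 26, a pair of alleles in which Cre under the control of the NKp46 gene switches on a toxin in NK cells, ILC1 and some ILC3. The labels do not say whether the strain is that of the host or of the mouse in which the line arose, so line and strain label cannot be told apart for MCA-943. The series' text names both wild-type and NK-cell-deficient mice as hosts, and the labels do not assign them to tumors. In its growth tests, the study transplanted lines into C57BL/6 mice with or without an antibody that depletes NK1.1+ cells. It sorted the lines by the genotype of the mouse that had been given MCA. Neither the study nor the labels state which of the sequenced tumors came from treated mice. Ages are not given in the sources used here. A line is 1 cell line from 1 animal, so differences between lines are differences between these 5 lines, and tumors of a line share its cells. Of the 8 tumors of MCA-969, W-1D and W-2D carry the opposite sensitivity label to the other 6. The labels name no sequencing run or batch. The libraries' identifier numbers fall into 3 blocks of nearby numbers, called identifier sets here, and whether a set was prepared or sequenced together is not given in the sources used here. Set 1 had 6 tumors of MCA-969 and 4 of MCA-972, set 2 had 2 of MCA-948, 2 of MCA-969 and 6 of MCA-970, and set 3 had 4 of MCA-943 and 6 of MCA-948.

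The aryl hydrocarbon receptor is a transcription factor of the bHLH-PAS family that rests in the cytoplasm with chaperones, binds flat aromatic molecules such as MCA, dioxins and tryptophan derivatives, moves to the nucleus and pairs with ARNT. The pair binds DNA motifs with the core GCGTG and switches on cytochrome P450 genes of family 1, whose enzymes oxidise polycyclic hydrocarbons and turn MCA into the products that damage DNA. AHRR, which competes for ARNT, and TIPARP, which modifies the receptor with ADP-ribose, are themselves induced by the receptor and limit it.

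On GRCm38, Ahr lies at chr12:35497974-35535038 on the minus strand, Arnt at chr3:95434388-95497240 on the plus strand, Ahrr at chr13:74211118-74292331 on the minus strand and Tiparp at chr3:65528410-65555518 on the plus strand. Cyp1a1 lies at chr9:57687928-57703824 on the plus strand and its neighbour Cyp1a2 at chr9:57676937-57683703 on the minus strand. Cyp1b1 lies at chr17:79701537-79715061 on the minus strand and Aldh3a1 at chr11:61207537-61218421 on the plus strand. Exons of Ahr overlap Gm48236 and exons of Tiparp overlap 4931440P22Rik, both on the opposite strand, and the strand setting of the counting is not given in the sources used here. The counts of 4931440P22Rik were between 17 and 83 per tumor, against 2589 or more for Tiparp, and Gm48236 was not analysed here.

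Promoters of 6 of the 8 genes were matched in RefSeq's table for GRCm38.p6, and the 250 bases before the start were searched for the receptor's core GCGTG on both strands (CACGC on the printed strand for a match on the other). Of 32851 promoters of this length, 28.2% held the core at least once. Ahrr held 3 matches, a number that 2.77% of all promoters reached. Arnt, Tiparp, Cyp1a1 and Cyp1b1 held 1 each and Cyp1a2 held none. Bases farther upstream were not searched, so these counts cover the 250 bases only. The longer form TNGCGTG was held by 4.1% of all promoters and, among the 6 genes, by that of Ahrr. Shown here are the repressor with its 3 matches and the P450 genes Cyp1b1, which these tumors expressed, and Cyp1a1, which had 1 count in all. The windows are chr13:74292332-74292581 on the minus strand for Ahrr, chr17:79715062-79715311 on the minus strand for Cyp1b1 and chr9:57697363-57697612 on the plus strand for Cyp1a1, which lies inside the gene's annotated span. Sequences run 5′ to 3′ and capitals mark the core.
Ahrr: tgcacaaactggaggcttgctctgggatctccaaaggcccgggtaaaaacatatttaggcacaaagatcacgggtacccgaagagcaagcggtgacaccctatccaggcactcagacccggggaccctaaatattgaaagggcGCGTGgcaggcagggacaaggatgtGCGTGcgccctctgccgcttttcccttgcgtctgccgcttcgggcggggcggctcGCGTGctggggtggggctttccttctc
Cyp1b1: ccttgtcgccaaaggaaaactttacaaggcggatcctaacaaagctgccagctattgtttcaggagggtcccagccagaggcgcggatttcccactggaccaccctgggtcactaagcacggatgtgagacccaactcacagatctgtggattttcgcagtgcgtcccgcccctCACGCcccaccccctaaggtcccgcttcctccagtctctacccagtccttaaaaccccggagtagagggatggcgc
Cyp1a1: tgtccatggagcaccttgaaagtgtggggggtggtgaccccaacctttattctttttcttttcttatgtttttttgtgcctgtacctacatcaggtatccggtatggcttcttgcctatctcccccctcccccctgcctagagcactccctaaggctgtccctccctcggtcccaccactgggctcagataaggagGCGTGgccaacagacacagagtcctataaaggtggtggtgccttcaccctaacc
The matches in Ahrr began 107, 82 and 27 bases before the start, that in Cyp1b1 76 bases and that in Cyp1a1 54 bases before it. A match is a string of letters and says nothing of binding in these tumors.

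The gene counts of a tumor summed to 27745104 at the lowest and 46537062 at the highest. Levels are counts-per-million values (CPM) on library sizes scaled by TMM normalization, and a count of 0 in 1 library allows up to 3 counts, which is 0.0602 to 0.113 CPM (counting error only). Of the fibroblast and sarcoma markers, all 7 were at 1 CPM or more in every line, and their sum ranged from 9468 CPM in a tumor of MCA-969 to 61886 CPM in one of MCA-943. The 4 hepatocyte markers, from the tissue in which family 1 P450 genes are best known, summed to at most 1.28 CPM in any tumor. RNA was pooled over the cells of a tumor, so fewer cells of a type and less RNA per cell cannot be told apart.

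Cyp1a1 and Cyp1a2, the classical readouts of the active receptor, were at the floor. Cyp1a1 had 1 count among 1085831858 counts of the 30 tumors, in MCA-969 tumor a-1D, and Cyp1a2 had 0. Over all tumors, 3 counts would be 0.00276 CPM. Neither gene passed the filter, so neither was compared between lines, and expression below that level was not detectable at this depth.

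Per kilobase of the length deposited with the counts, Tiparp and Arnt were the most abundant of the 8 genes in every line by mean CPM per kb. Tiparp ranged from 28.9 CPM per kb in MCA-943 to 65.4 in MCA-970, and Arnt from 12.6 in MCA-943 to 35.6 in MCA-970. Ahr stood well below its partner: the median ratio of Arnt to Ahr per kb was 5.06 in MCA-948, 8.81 in MCA-969, 18.9 in MCA-972, 27.3 in MCA-943 and 35.6 in MCA-970. In each of the 30 tumors Arnt exceeded Ahr per kb, the lowest ratio being 4.36. Ahrr was the scarcer of receptor and repressor in every tumor, with median ratios of Ahr to Ahrr per kb from 5.53 in MCA-972 to 181 in MCA-948.

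Differences between lines were tested for every pair of lines, with 16862 genes in the model. A gene was called in a comparison where its adjusted p was under 0.05 and its level differed by 1 or more on the log2 scale. All 6 genes that were tested differed among the 5 lines at an adjusted p under 0.05, as did 94.1% of all genes tested, so this says little of these genes. Over the 10 pairs of lines, the 6 genes were called in 31 of 60 tests (51.7%), where all genes were called in 24.5%. Cyp1b1 was called in 8 comparisons, which 5.73% of all genes reached, Ahr and Ahrr in 7 each (11.6%), Aldh3a1 in 5 (23.8%), and Arnt and Tiparp in 2 each (49.5%). The shares for Arnt and Tiparp are thus close to those of an ordinary gene.

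Pair by pair, MCA-943 and MCA-948 differed in 4 of the 6 genes, where 29.0% of all genes were called, and 2 between MCA-943 and MCA-969 (27.0% of all genes). Between MCA-943 and MCA-970, 5 were called (27.3%), and between MCA-943 and MCA-972, 2 (25.6%). MCA-948 differed in 4 genes, the same Ahr, Ahrr, Cyp1b1 and Aldh3a1, from each of the other lines: from MCA-969 (20.8% of all genes called), MCA-970 (29.4%) and MCA-972 (26.8%) as well as MCA-943. The median absolute log2 fold change of the 6 genes was 1.06 to 2.37 in the comparisons with MCA-948, where that of all genes was 0.429 to 0.618, and 0.676 to 1.28 in the other 6, where that of all genes was 0.415 to 0.564. The remaining pairs gave 1 call between MCA-969 and MCA-970 (21.4%), 2 between MCA-969 and MCA-972 (20.6%) and 3 between MCA-970 and MCA-972 (17.6%).

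**Figure D1:**
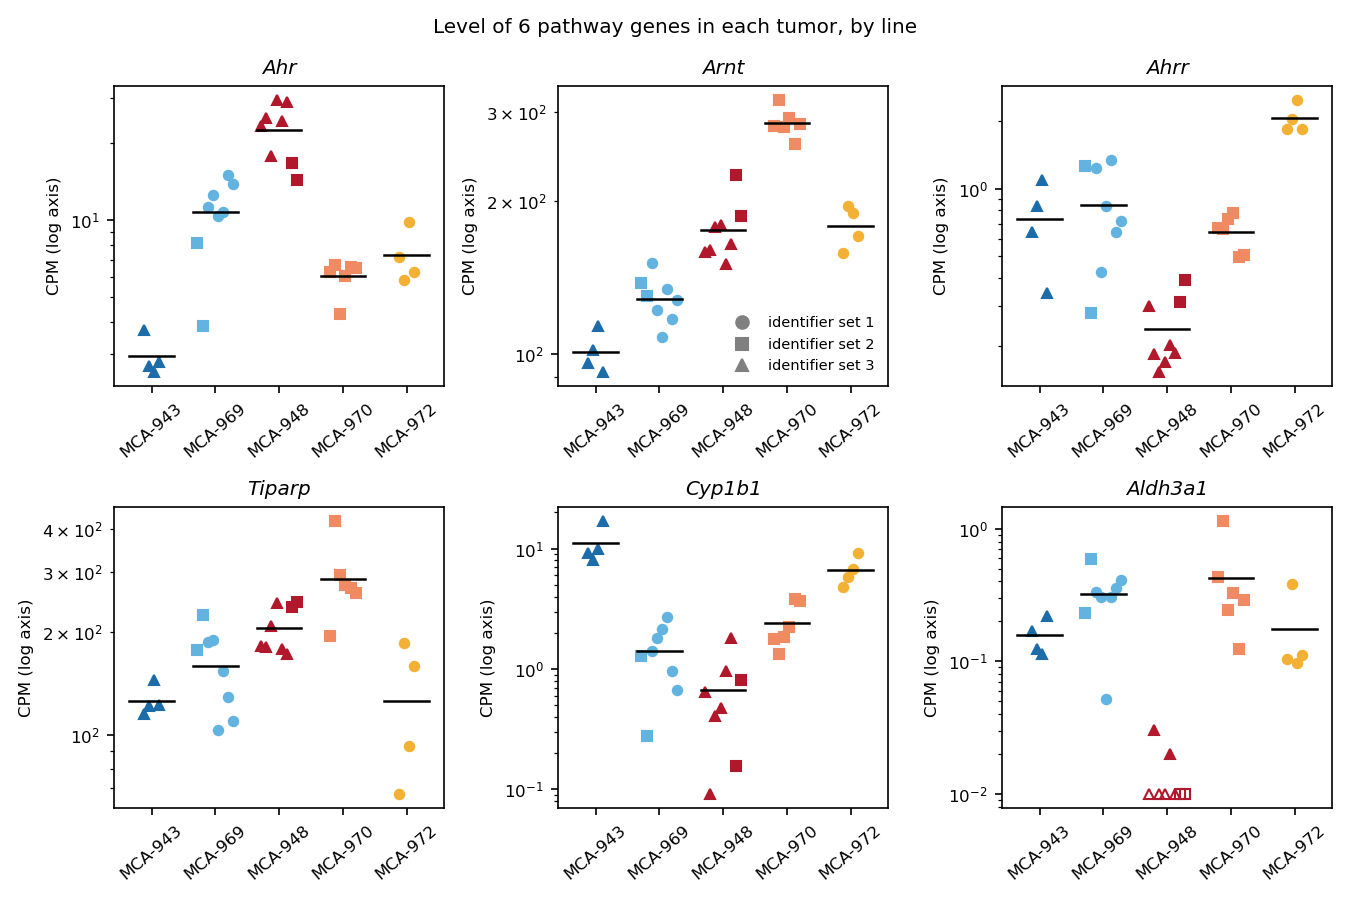
CPM (log axis) of the 6 genes that passed the filter, 1 point per tumor, by line; black bars are line means over 4 to 8 tumors and point shapes mark the identifier set. Open symbols are tumors with 0 counts, drawn at 0.01 CPM. Ahr was highest in MCA-948 (mean 22.6 CPM) and lowest in MCA-943 (2.94 CPM), Cyp1b1 the reverse, and Aldh3a1 had 2 counts in all in MCA-948.

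Ahr, the receptor, was lowest in MCA-943, whose 4 tumors had 2.53, 2.69, 2.79 and 3.73 CPM. In MCA-948 the lowest, median and highest of 8 tumors were 14.4, 23.9 and 29.7 CPM. In MCA-969 they were 3.84, 11 and 15.1 CPM. MCA-943 and MCA-948 thus did not overlap, whereas 1 MCA-969 tumor, W-2D at 3.84 CPM, lay close to the MCA-943 tumors. MCA-970 had 4.31, 6.36 and 6.70 CPM as lowest, median and highest of 6 tumors, and the 4 MCA-972 tumors had 5.81, 6.29, 7.19 and 9.81 CPM. The means were 22.6 ± 5.68 CPM in MCA-948 (SD, n = 8), 10.7 ± 3.52 in MCA-969 (SD, n = 8), 7.28 ± 1.78 in MCA-972 (SD, n = 4), 6.05 ± 0.887 in MCA-970 (SD, n = 6) and 2.94 ± 0.539 in MCA-943 (SD, n = 4). The difference between the extremes, MCA-943 minus MCA-948, was −2.94 on the log2 scale (SE 0.274, adjusted p = 1.4e-10). In the order of the lines, the steps from MCA-948 to MCA-969 (log2 fold change 1.07, SE 0.190, adjusted p = 1.75e-05) and from MCA-970 to MCA-943 (1.04, SE 0.263, adjusted p = 0.00113) were called. Those between MCA-969, MCA-972 and MCA-970 were not (0.56, adjusted p = 0.0474 and 0.27, adjusted p = 0.389).

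Ahr also differed between identifier sets inside both lines that spanned them. The 2 MCA-948 tumors of set 2 had 14.4 and 16.7 CPM and the 6 of set 3 had 17.8 to 29.7 CPM. The 2 MCA-969 tumors of set 2, which are also the 2 with the opposite sensitivity label, had 3.84 and 8.15 CPM and the 6 of set 1 had 10.4 to 15.1 CPM. In both lines the tumors of set 2 lay below all others. Comparisons inside a set kept the calls of Ahr wherever the pooled test had one: MCA-943 minus MCA-948 was −3.11 in set 3, MCA-969 minus MCA-948 was −1.37 and MCA-948 minus MCA-970 was 1.37 in set 2. MCA-969 minus MCA-970, 0.83 on the log2 scale when pooled and not called, was −0.0016 in set 2. With the identifier set in the model, Ahr was called in 6 comparisons, and MCA-943 minus MCA-972 lost its call (−0.95, adjusted p = 0.0527). The order of MCA-970 and MCA-972, which share no set, then turned: MCA-970 minus MCA-972 was −0.27 pooled and 0.77 with the set in the model (SE 0.298, adjusted p = 0.0528). Within sets, the share of all genes called was 19.8% for MCA-969 against MCA-972 in set 1, 10.7% between MCA-969 and MCA-948, 22.3% between MCA-948 and MCA-970 and 17.4% between MCA-969 and MCA-970 in set 2, and 29.6% between MCA-943 and MCA-948 in set 3.

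Cyp1b1, the family 1 P450 of connective tissue cells, was the P450 member that these tumors expressed, and its order across lines ran opposite to that of Ahr at both ends. The 4 MCA-943 tumors had 8.12, 9.18, 10.02 and 16.9 CPM. The 4 MCA-972 tumors had 4.85, 5.81, 6.75 and 9.24 CPM. Both lines lay above all tumors of the other 3 lines. In MCA-970 the lowest, median and highest of 6 tumors were 1.32, 2.04 and 3.79 CPM, in MCA-969 0.279, 1.35 and 2.73 CPM of 8 tumors, and in MCA-948 0.0917, 0.561 and 1.81 CPM of 8 tumors. The ranges of MCA-970, MCA-969 and MCA-948 overlapped. Means were 11.1 ± 4 CPM in MCA-943 (SD, n = 4), 6.66 ± 1.89 in MCA-972 (SD, n = 4), 2.44 ± 1.04 in MCA-970 (SD, n = 6), 1.42 ± 0.801 in MCA-969 (SD, n = 8) and 0.671 ± 0.549 in MCA-948 (SD, n = 8). The summed fibroblast and sarcoma markers followed the same order of lines, with medians of 56892 CPM in MCA-943, 35165 in MCA-972, 28626 in MCA-970, 15473 in MCA-969 and 14104 in MCA-948. By line mean, Col1a1, Col1a2 and Pdgfra kept this order, and Col3a1, Pdgfrb, Thy1 and Vim did not. Pdgfrb and Thy1 had their highest means in MCA-970 (489 and 731 CPM), and Vim had its lowest there (3514 CPM). The part of these markers in the level of Cyp1b1 was not tested. MCA-943 exceeded MCA-948 by 4.03 on the log2 scale (SE 0.468, adjusted p = 1.32e-08), and in set 3 alone by 3.87 (adjusted p = 5.85e-05).

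Between neighbours in this order, MCA-943 and MCA-972 were not called apart (log2 fold change 0.73, SE 0.526, adjusted p = 0.243), and neither were MCA-970 and MCA-969 (0.79, SE 0.419, adjusted p = 0.105). The steps from MCA-972 to MCA-970 (1.45, adjusted p = 0.0143) and from MCA-969 to MCA-948 (1.06, adjusted p = 0.0283) were called. Both of these calls were lost with the identifier set in the model (0.43, adjusted p = 0.735 for MCA-972 over MCA-970 and 0.75, adjusted p = 0.568 for MCA-969 over MCA-948), as was that of MCA-943 over MCA-970 (1.53, adjusted p = 0.163), which left 5 calls. In set 2 alone, MCA-969 exceeded MCA-948 by 0.73 (adjusted p = 0.601, 2 tumors each). MCA-972 over MCA-969 in set 1 (2.04, adjusted p = 0.000263) and MCA-970 over MCA-948 in set 2 (2.33, adjusted p = 0.0292) were called within a set.

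**Figure D2:**
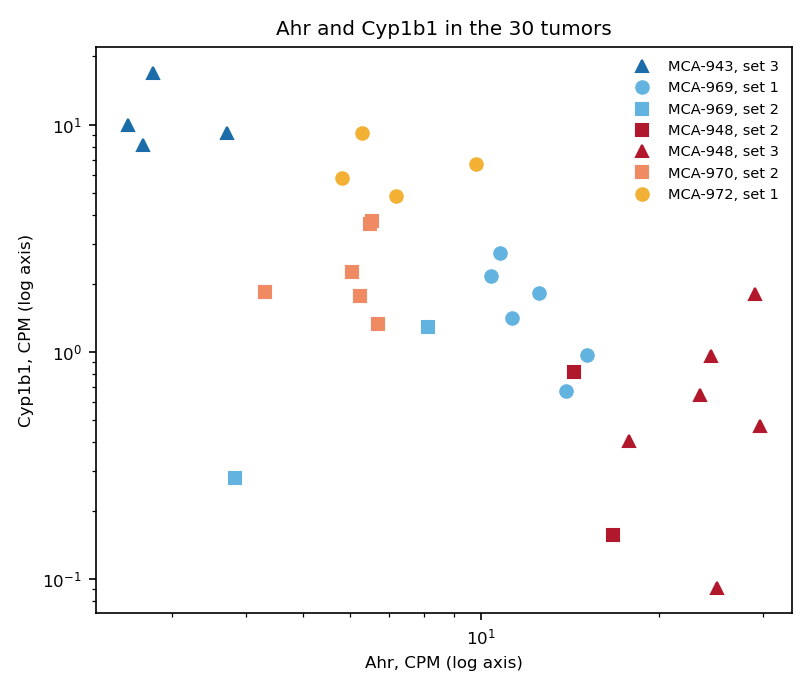
Ahr (x axis) against Cyp1b1 (y axis), CPM on log axes, 1 point per tumor, colored by line and shaped by identifier set. MCA-943 lies at low Ahr and high Cyp1b1 (8.12 to 16.9 CPM) and MCA-948 at high Ahr and low Cyp1b1 (0.0917 to 1.81 CPM), and the MCA-969 tumor at 3.84 CPM of Ahr is low in both.

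Per kilobase, Cyp1b1 exceeded Ahr in all 4 MCA-943 tumors, with a median ratio of 4.19, and the median ratio was 1.01 in MCA-972, 0.479 in MCA-970, 0.162 in MCA-969 and 0.0303 in MCA-948. Inside lines the genes were not called related. Pearson's r between the log2 CPM of the genes was 0.22 in MCA-948 (n = 8, exact permutation p = 0.599), 0.57 in MCA-969 (n = 8, exact p = 0.147) and 0.24 in MCA-970 (n = 6, exact p = 0.676), and Spearman's rho was 0.14, −0.02 and −0.03 (exact p = 0.752, 0.977 and 1). Adjusted over all pairs of genes computed, the p for r ran from 0.472 to 0.742 and that for rho from 0.846 to 1. Without the 2 tumors farthest from the median of Ahr, r was 0.27, −0.34 and 0.81. Of 45 correlations between pairs of the 6 genes in these 3 lines, 0 passed Benjamini-Hochberg adjustment of the exact permutation tests and 3 had an unadjusted p under 0.05. With the 6 tumors of MCA-970, the exact p cannot be small enough for a correlation to pass this adjustment on its own. The lowest unadjusted p was for Arnt and Tiparp in MCA-948 (r = 0.80, rho = 0.76, n = 8, exact p = 0.00975, adjusted p = 0.375), where r was 0.92 without the 2 tumors farthest from the median of Arnt. In MCA-970, r was 0.95 for Arnt and Aldh3a1 (n = 6, rho = 0.83, exact p = 0.0167, adjusted p = 0.375), which rested on 2 tumors (0.18 without them), and −0.80 for Cyp1b1 and Aldh3a1 (n = 6, rho = −0.83, exact p = 0.0431, adjusted p = 0.456, and −0.85 without 2).

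Ahrr, the repressor, was scarce in all lines and highest in MCA-972. Its 4 tumors had 1.84, 1.85, 2.05 and 2.49 CPM, from 66 to 102 counts. In MCA-948 the lowest, median and highest of 8 tumors were 0.152, 0.193 and 0.393 CPM, from 5 to 12 counts. All MCA-972 tumors lay above every tumor of the other lines, and 5 of the 8 MCA-948 tumors lay below every one. The 4 MCA-943 tumors had 0.343, 0.644, 0.839 and 1.10 CPM, MCA-969 had 0.279, 0.779 and 1.34 CPM and MCA-970 0.497, 0.665 and 0.778 CPM as lowest, median and highest. Means were 2.06 ± 0.307 CPM in MCA-972 (SD, n = 4), 0.843 ± 0.402 in MCA-969 (SD, n = 8), 0.730 ± 0.318 in MCA-943 (SD, n = 4), 0.641 ± 0.116 in MCA-970 (SD, n = 6) and 0.237 ± 0.0867 in MCA-948 (SD, n = 8). MCA-948 minus MCA-972 was −3.11 on the log2 scale (SE 0.314, adjusted p = 1.02e-09). MCA-972 over MCA-969 (1.28, SE 0.295, adjusted p = 0.000551) and MCA-970 over MCA-948 (1.43, SE 0.307, adjusted p = 0.000159) were called, and the 3 lines between were not called apart (adjusted p = 0.561 and 0.675 for the neighbouring pairs). The line with the most receptor RNA, MCA-948, was thus the line with the least repressor RNA. The other line means did not run in reverse order. MCA-943, with the least Ahr (mean 2.94 CPM), was not the highest in Ahrr, and MCA-969 was next to highest in both.

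In MCA-948 the 2 tumors of set 2 had 0.313 and 0.393 CPM of Ahrr, above the 6 of set 3 (0.152 to 0.299 CPM). In MCA-969 the sets overlapped. With the identifier set in the model Ahrr was called in 4 comparisons. Lost were MCA-943 against MCA-972 (−0.55, adjusted p = 0.604), MCA-969 against MCA-948 (1.15, adjusted p = 0.116) and MCA-948 against MCA-970 (−0.86, adjusted p = 0.122). The last 2 pairs share set 2, in which their differences were 1.14 (adjusted p = 0.211) and −0.85 (adjusted p = 0.194). In set 1, MCA-969 minus MCA-972 was −1.25 (adjusted p = 0.00252), and in set 3, MCA-943 minus MCA-948 was 1.81 (adjusted p = 0.00032).

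Arnt, the obligate partner, varied little within lines and was ordered by line. The 4 MCA-943 tumors had 92.0, 96.0, 102 and 114 CPM, and MCA-970 had 260, 282 and 317 CPM as lowest, median and highest of 6 tumors, above every tumor of the other lines. MCA-969 had 108, 129 and 151 CPM, MCA-948 had 150, 171 and 225 CPM, and the 4 MCA-972 tumors had 158, 170, 190 and 195 CPM. Means were 101 ± 9.40 CPM in MCA-943 (SD, n = 4), 129 ± 13.2 in MCA-969 (SD, n = 8), 175 ± 23.7 in MCA-948 (SD, n = 8), 178 ± 17.3 in MCA-972 (SD, n = 4) and 285 ± 18.7 in MCA-970 (SD, n = 6). MCA-970 was called above MCA-943 (log2 fold change of MCA-943 minus MCA-970 −1.50, SE 0.102, adjusted p = 4.12e-13) and above MCA-969 (MCA-969 minus MCA-970 −1.15, SE 0.0806, adjusted p = 8.83e-13, and −1.08 in set 2 alone, adjusted p = 7.85e-05). Most other differences passed the adjusted p but not the fold: without a threshold on the fold Arnt was called in 9 of 10 comparisons, where 60.0% of all tests over all genes were. In MCA-948 the 2 tumors of set 2 had 187 and 225 CPM, above the 6 of set 3 (150 to 180 CPM). In MCA-969 the sets overlapped. With the identifier set in the model both calls of MCA-970 were kept. MCA-943 minus MCA-969 went from −0.35 (adjusted p = 0.00185) to −0.09 (adjusted p = 0.676).

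Tiparp, the ADP-ribosyltransferase, was the most abundant target. MCA-970 had 195, 271 and 421 CPM as lowest, median and highest of 6 tumors, MCA-948 had 173, 195 and 244 CPM, and MCA-969 had 104, 165 and 224 CPM. The 4 MCA-943 tumors had 116, 122, 122 and 145 CPM and the 4 MCA-972 tumors had 67.5, 92.8, 159 and 186 CPM. All neighbouring lines in the order of means overlapped. Means were 285 ± 74.3 CPM in MCA-970 (SD, n = 6), 206 ± 31.2 in MCA-948 (SD, n = 8), 159 ± 42.5 in MCA-969 (SD, n = 8), 126 ± 55.3 in MCA-972 (SD, n = 4) and 126 ± 12.9 in MCA-943 (SD, n = 4). MCA-970 was called above MCA-972 (1.17, SE 0.237, adjusted p = 0.000176) and MCA-943 (MCA-943 minus MCA-970 −1.18, SE 0.237, adjusted p = 0.000103). Both calls were lost with the identifier set in the model (0.71, adjusted p = 0.147, and −0.87, adjusted p = 0.0553), and that over MCA-972 also without the MCA-972 tumor 2G, which had the lowest value (0.97, adjusted p = 0.00129).

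MCA-970, the line highest in Arnt and Tiparp, was also the line highest in the endothelial marker Cdh5, at 211 to 252 CPM against at most 126 CPM in any tumor of the other lines. The 5 endothelial markers, all at 1 CPM or more in every line, summed to 251 to 454 CPM in MCA-970, against 54.7 to 112 in MCA-943, 55.0 to 176 in MCA-969, 15.7 to 313 in MCA-948 and 39.97 to 102 in MCA-972. Cdh5 carried most of this sum in MCA-970. The means of Pecam1 (85.0 CPM), Kdr (33.4 CPM) and Emcn (17.4 CPM) were also highest in MCA-970. Tumors overlapped in Pecam1 (21 to 119 CPM in MCA-970 and 5.82 to 114 in MCA-948) and Kdr (8.43 to 47.1 and 1.79 to 48.7). Tek had its highest mean in MCA-972 (7.90 CPM, against 5.48 in MCA-970). The part of these markers in the levels of Arnt and Tiparp was not tested.

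Aldh3a1, an aldehyde dehydrogenase known as a receptor target in liver, was near the floor everywhere and lowest in MCA-948. There the 8 tumors held 2 counts in all, 1 each in 2 tumors and 0 in the other 6. The 4 MCA-943 tumors had 0.113, 0.123, 0.169 and 0.220 CPM (3 to 9 counts), and the 4 MCA-972 tumors had 0.0978, 0.104, 0.111 and 0.382 CPM (4 to 14 counts). MCA-969 had 0.0524, 0.319 and 0.588 CPM (2 to 19 counts) and MCA-970 0.124, 0.310 and 1.14 CPM (4 to 31 counts) as lowest, median and highest. No tumor of the other lines was as low as the highest MCA-948 tumor, at 0.0306 CPM. From summed counts over summed library sizes, MCA-970 held 60.0 times the level of MCA-948 (exact 95% interval 16.1 to 504), MCA-969 47.5 times (12.8 to 398), MCA-972 25.5 times (6.39 to 222) and MCA-943 23.9 times (5.87 to 210). These intervals cover counting error only. MCA-948 was called below each of the other lines (adjusted p from 3.24e-08 for MCA-970 to 8.41e-05 for MCA-943), and MCA-943 below MCA-970 (−1.38, adjusted p = 0.0301). No neighbours among the other 4 lines were called apart. With the identifier set in the model, the call between MCA-943 and MCA-970 was lost (−3.19, adjusted p = 0.316), and the other 4 were kept.

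**Figure D3:**
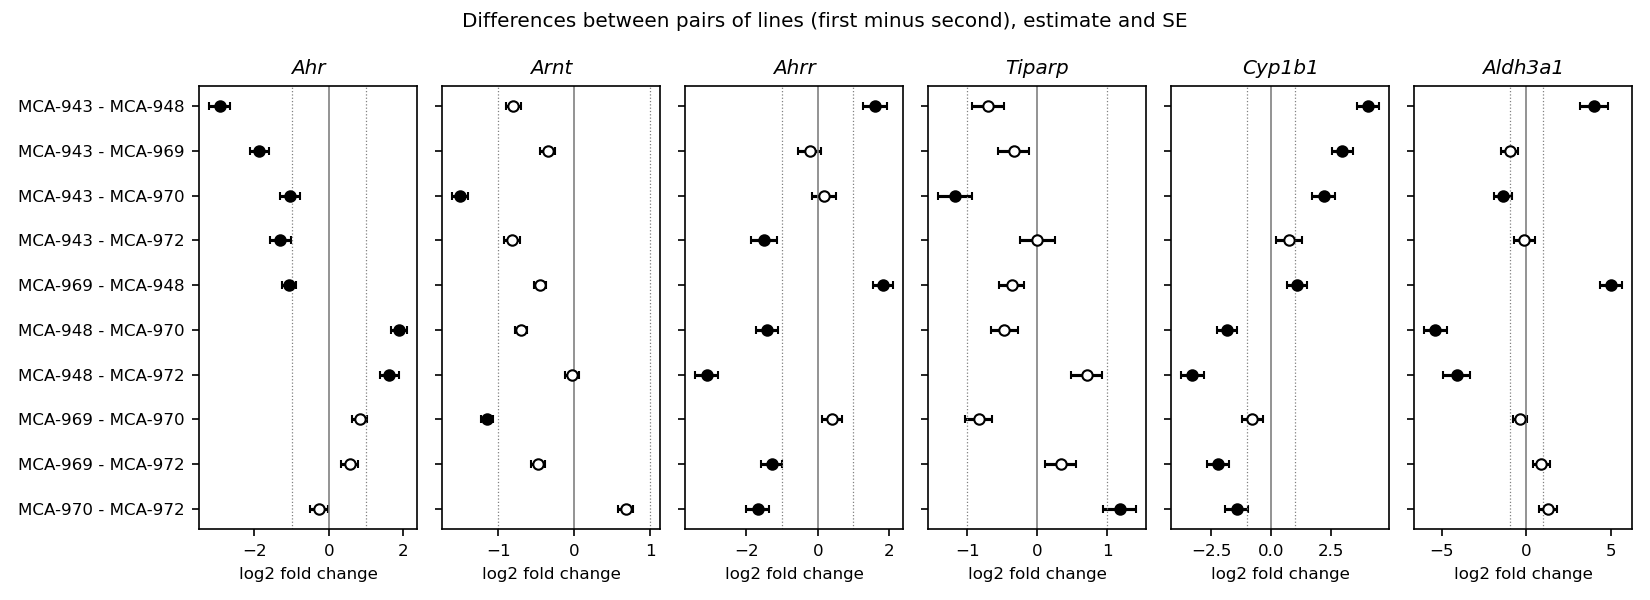
Log2 fold change (first line minus second) with its standard error for each of the 10 pairs of lines, 1 panel per gene with its own x axis; filled points were called, and the dotted lines mark a log2 fold change of 1 in either direction. Ahr and Cyp1b1 take opposite signs in every comparison except MCA-970 minus MCA-972, for example −2.94 and 4.03 for MCA-943 minus MCA-948.

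Set against the sensitivity of the lines to NK1.1+ cells, the genes gave no common direction. Means of log2 CPM in the non-sensitive minus the sensitive lines were −0.85 for Ahr, −0.86 for Arnt, −0.43 for Tiparp, 0.05 for Ahrr, 0.84 for Cyp1b1 and 0.64 for Aldh3a1. With 10 ways to divide the 5 lines, a two-sided exact permutation test cannot go below p = 0.1. By chance a gene would reach that limit in about 1 of 10 cases, and the share of all genes that did is not given here. Arnt reached that limit (exact p = 0.1), both non-sensitive lines having lower means than the 3 sensitive ones, and the others gave exact p = 0.5 for Tiparp, 0.6 for Ahr, 0.7 for Cyp1b1 and 0.8 for Ahrr and Aldh3a1. Over the 6 pairs of 1 non-sensitive and 1 sensitive line, 13.4% of all tests over all genes were called higher and 10.7% lower in the non-sensitive line. Ahr was called lower in 4 of the 6 pairs, Arnt lower in 2 and Tiparp lower in 1. Ahrr was called higher in 2 and lower in 2, Cyp1b1 higher in 3 and lower in 1, and Aldh3a1 higher in 2 and lower in 1.

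The sample titles carry a letter, a or W, whose meaning is not given in the sources used here. Inside lines, 0 of the 6 genes were called between 14 tumors with a and 12 with W by edgeR, where 0.230% of all genes were, and 1 of them had an unadjusted p under 0.05. This was Cyp1b1, with a log2 fold change of a minus W of 0.77 (SE 0.309, adjusted p = 0.540 by edgeR's quasi-likelihood test). DESeq2 and limma-voom also called 0. The difference between letters did not vary by line for any of the 6 genes at an adjusted p under 0.05 (0.0946% of all genes passed), and the smallest was 0.364, for Tiparp.

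Other genes of the pathway were taken from 5 lists with 40 genes, of which 34 were tested. They were called in 92 of 340 tests (27.1%), close to the 24.5% of all genes. Among all genes, 5.73% were called in 8 or more comparisons, 11.6% in 7 or more, 23.8% in 5 or more and 49.5% in 2 or more. The 5 genes of the cytoplasmic receptor complex were called in 4 of 50 tests (8%), all from the co-chaperone Ptges3 (p23), which was lower in MCA-970 (76.1 ± 9.98 CPM, SD, n = 6) than in each other line, for example MCA-948 (196 ± 44.2, SD, n = 8, log2 fold change 1.37, adjusted p = 3.01e-09). The chaperone genes Hsp90aa1 and Hsp90ab1 and the ubiquitin ligase Stub1 were called in 0, with Hsp90ab1 at 2336 to 4200 CPM by line mean.

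Of the related bHLH-PAS factors, 6 of 7 were tested and called in 10 of 60 tests (16.7%, against 24.5% over all genes). Arnt2, a second partner that is known from nerve tissue, gave 8 of them. It was at 6.57 ± 1.57 CPM in MCA-972 (SD, n = 4), 3.08 ± 1.06 in MCA-970 (SD, n = 6) and 1.83 ± 0.824 in MCA-969 (SD, n = 8), but at 0.311 ± 0.0968 in MCA-943 (SD, n = 4) and 0.272 ± 0.172 in MCA-948 (SD, n = 8). MCA-972 exceeded MCA-948 by 4.55 on the log2 scale (SE 0.389, adjusted p = 3.34e-11). The clock gene Arntl gave the other 2, being higher in MCA-943 and MCA-969 than in MCA-972 (1.32 and 1.29). Hif1a, Epas1, Clock and Arntl2 were called in 0, and Epas1 varied widely inside MCA-948 (15.8 ± 17.3 CPM, SD, n = 8).

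The other reported target genes were called in 32 of 80 tests (40%, against 24.5% over all genes), with 8 of 10 tested. Nqo1, a quinone reductase shared with the NRF2 pathway, was called in 0, with line means of 7.56 to 13 CPM. The growth factor gene Ereg was called in 8, with 702 ± 647 CPM in MCA-969 (SD, n = 8), 319 ± 84.7 in MCA-970 (SD, n = 6), 133 ± 80.6 in MCA-972 (SD, n = 4), 19.7 ± 9.999 in MCA-948 (SD, n = 8) and 18.8 ± 6.58 in MCA-943 (SD, n = 4). MCA-969 exceeded MCA-948 by 5.16 (SE 0.486, adjusted p = 3.75e-10). The P450 gene Cyp2s1 was called in 7 and was highest in MCA-943 (2.88 ± 1.77 CPM, SD, n = 4) and lowest in MCA-972 (0.448 ± 0.0591, SD, n = 4). The glucuronosyltransferase genes Ugt1a6a and Ugt1a6b, called in 4 and 8, share exons with the rest of the Ugt1a cluster, and their counts are uncertain. Both were lowest in MCA-948, at 0.0734 and 0.0481 CPM.

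Genes of the tryptophan routes that yield natural ligands of the receptor were called in 23 of 70 tests (32.9%, against 24.5% over all genes). Of the 10 genes, 7 were tested, and not each of them makes a ligand. Ido1, the first enzyme of the kynurenine route, was called in 7 and was at 1.34 ± 0.405 CPM in MCA-943 (SD, n = 4), 0.481 ± 0.449 in MCA-969 (SD, n = 8) and 0.0680 ± 0.0252 in MCA-948 (SD, n = 8), a log2 difference between MCA-943 and MCA-948 of 4.25 (SE 0.445, adjusted p = 1.47e-09). Il4i1, an amino acid oxidase of immune cells whose exons overlap Nup62 and Atf5, was at 2.07 ± 0.773 CPM in MCA-943 (SD, n = 4) and at 0.179 to 0.296 CPM by mean in the other lines. The transaminase gene Aadat ran the other way, at 0.0756 ± 0.0290 CPM in MCA-943 (SD, n = 4) and 0.588 to 1.04 CPM in the others. Kmo was called in 4, with a mean of 0.461 ± 0.463 CPM in MCA-943 (SD, n = 4) and 0.0532 ± 0.0574 in MCA-969 (SD, n = 8). The leukocyte marker Ptprc, which encodes CD45, was at 2.94 to 25.1 CPM in MCA-943 tumors and 0.402 to 2.54 CPM in MCA-969 tumors. Its ranges in MCA-948, MCA-970 and MCA-972 overlapped that of MCA-943. By line mean, Ptprc, Cd3e and Nkg7 were highest in MCA-943. Lyz2, Adgre1 and Itgam were highest in MCA-970, and Cd79a in MCA-969. The mean of Lyz2 was 24.4 CPM in MCA-943, 43.5 in MCA-948 and 52 in MCA-970. The 7 leukocyte markers summed to 12.5 to 79.7 CPM in MCA-943, 17.5 to 97.6 in MCA-948 and 4 to 32.7 in MCA-969. They summed to 8.72 to 206 CPM in MCA-970 and 13.3 to 41.6 in MCA-972. All 7 had counts in every line. Their part in the levels of Ido1, Il4i1 and Kmo was not tested.

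Enzymes that work beside the family 1 P450s on hydrocarbons were called in 23 of 80 tests (28.8%, against 24.5% over all genes), with all 8 tested. Ephx1, the epoxide hydrolase that acts on P450 products of hydrocarbons such as MCA, was called in 6. It was at 34.2 ± 6.4 CPM in MCA-943 (SD, n = 4), 12.7 ± 5.44 in MCA-972 (SD, n = 4), 10.8 ± 3.12 in MCA-970 (SD, n = 6), 6.72 ± 2.83 in MCA-969 (SD, n = 8) and 4.75 ± 1.83 in MCA-948 (SD, n = 8). This was the same order of line means as Cyp1b1 and of medians as the summed fibroblast and sarcoma markers. Col3a1, Pdgfrb, Thy1 and Vim did not each keep that order, and the part of the markers was not tested. MCA-943 exceeded MCA-948 by 2.85 (SE 0.292, adjusted p = 1.23e-09). The glutathione transferase Gstt1 was called in 7 and was likewise highest in MCA-943 (3.21 ± 0.842 CPM, SD, n = 4) and lowest in MCA-948 (0.284 ± 0.149, SD, n = 8), as was the sulfotransferase Sult1a1, called in 2 (1.05 ± 0.393 CPM, SD, n = 4, and 0.193 ± 0.153, SD, n = 8). Por, the reductase that passes electrons to the P450s, was called in 0, with line means of 99.2 to 175 CPM.

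**Figure D4:**
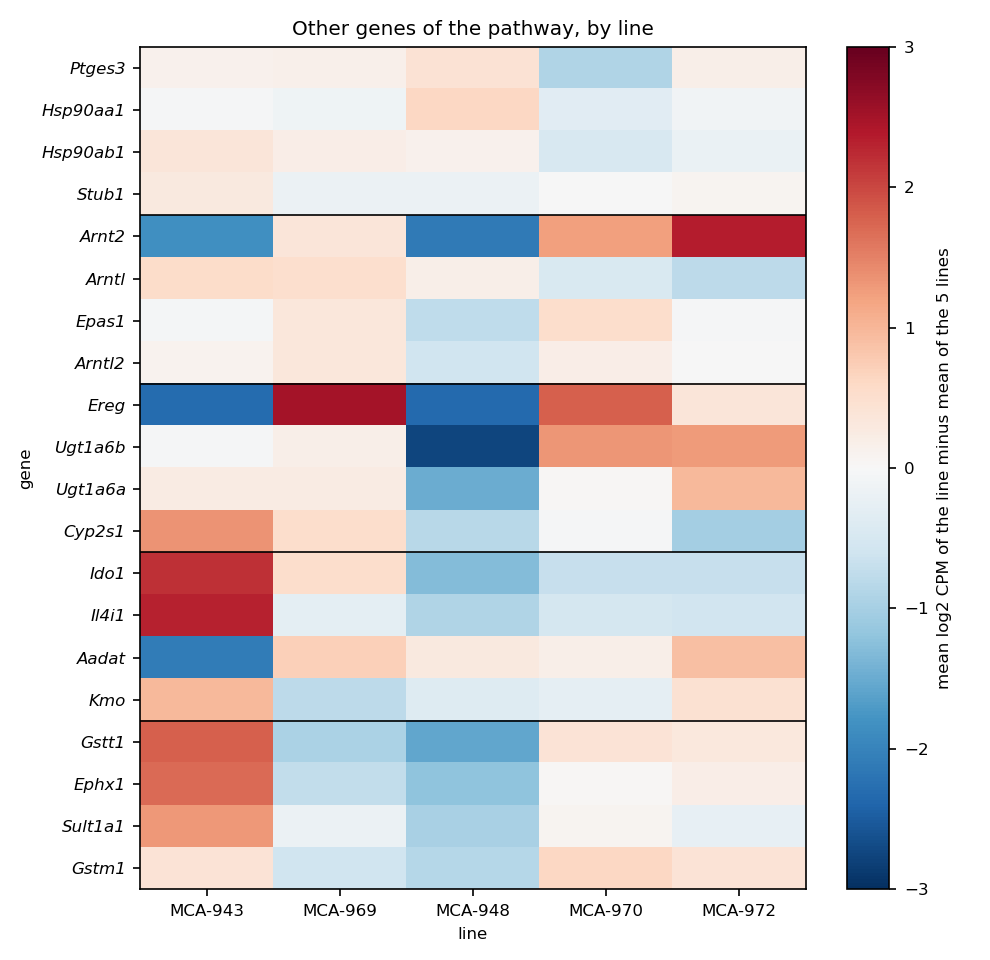
Mean log2 CPM of each line minus the mean of the 5 lines, for the 4 tested genes of each list with the widest range of line means; rows are genes, columns are lines, and black lines separate the lists in the order described. Gstt1, Ephx1, Sult1a1, Ido1 and Il4i1 are highest in MCA-943, and Arnt2 and Ereg are low in MCA-943 and MCA-948.

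The 6 genes of the lists that did not pass the filter had few counts. Sim2, Gsta1 and Tdo2 summed to at most 9 counts in any line. Gsta2, a glutathione transferase, had 41 counts in the 4 MCA-943 tumors and at most 3 in any other line, Kynu, an enzyme of the kynurenine route, had 63 counts in the 4 MCA-972 tumors and at most 11 elsewhere, and Ido2 had 10 to 42 counts by line.

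The genes whose log2 CPM over the 30 tumors was most like each member, by Pearson's r, were taken from all 16862 genes. The tumors of a line share its cells, so these r describe mostly the order of the lines. For Ahr they were Esf1 (r = 0.94, rho = 0.95), Gtf3c2 (0.93) and Fam199x (0.93), for Arnt Rfxap (r = 0.97), Gtf2ird1 (0.96) and Crtc2 (0.95), and for Ahrr Sema3b (r = 0.90), Ptgfr (0.90) and Prrt4 (0.89). For Tiparp they were Efna1 (r = 0.89), Gm28192 (0.85) and Sema6a (0.85), for Cyp1b1 Gpx3 (r = 0.94, rho = 0.95), 5430403G16Rik (0.93) and Ecm2 (0.92), and for Aldh3a1 St3gal1 (r = 0.89), Pdpn (0.89) and Aldh3a2 (0.88). No other of the 8 members was among them.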

How the data were processed

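Bulk RNA was measured in 30 tumors of 5 lines. The authors aligned reads with STAR 2.5.3a to GRCm38 and took gene counts from featureCounts (version 1.5.2 in the submitters' processing notes); column names point to removal of duplicates by molecular identifiers, and the deposited values are counts per gene without normalization. Strand and multi-mapping settings are not given in the sources used here. GENCODE release M21 named 48058 of 48440 genes. Lines were taken from the sample titles and their sensitivity from the study. Members and gene lists were chosen with earlier results of these data known.

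From the counts, edgeR 4.0.16 (R 4.3.3) gave TMM library sizes, filterByExpr with the line as group kept 16862 genes, and all tumors entered 1 robust quasi-likelihood model by line (biological coefficient of variation 0.221). P-values were adjusted by Benjamini-Hochberg over all genes of a comparison, and standard errors come from the F statistic. The p-values measure the spread between tumors of a line. Nothing in the labels says that these came from separate cultures, or states whether any share an animal. Log2 CPM used a prior count of 2. Intervals of count ratios are exact conditional binomial intervals (95%). Correlations and the comparison of 5 line means used two-sided exact permutation tests.

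Alternatives were DESeq2 1.42.0, limma-voom (limma 3.58.1), DESeq2's size factors, other filters, no threshold on the fold, the identifier set, the library's sample number (above 12 or not) or the code in the title as a term in the model, fits within identifier sets, and leaving out tumors. The scripts were tested on simulated counts. The rule for named genes took the 8 members in all tumors, the 4 tested genes of each list with the widest range of line means, list genes not detected, and the 3 genes most like each member. Named besides, after their values were seen, were Nqo1, Por, Hif1a, Clock, the list genes below the filter and the overlapping genes. The values of 1 list gene are not reported here. Keratinocyte markers (5 genes) summed to 0.792 to 9.07 CPM per tumor. Permutations used scipy 1.17.1 under Python 3.11.15, and plots in matplotlib 3.10.9.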

Additional observations from a re-analysis of the deposited data

Results flagged for a closer look

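In 3 of 30 sets of tumors (6 genes in 5 lines), 1 tumor stood apart from the rest of its line, and chance flags about 1 set in 20. Ahr was 4.31 CPM (141 counts) in MCA-970 tumor W-R and 6.04 to 6.70 CPM in the other 5. Aldh3a1 was 1.14 CPM (31 counts) in MCA-970 tumor W-2D and 0.124 to 0.435 CPM in the other 5. Aldh3a1 was 0.382 CPM (14 counts) in MCA-972 tumor a-1 and 0.0978 to 0.111 CPM in the other 3.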

How the results depend on the processing

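The 31 calls of the 6 genes became 31 with DESeq2, 30 with limma-voom, 31 with DESeq2's size factors, 30 without the filter, 44 without the threshold on the fold, 21 with the identifier set in the model, 26 with the library's sample number (above 12 or not), 30 with the title code as replicate block and 32 without MCA-969 W-1D and W-2D. With a mean of at least 1 CPM there were 19, since Ahrr and Aldh3a1 were then not tested, and the other pathway genes went from 92 calls to 57. Without the threshold on the fold these genes gave 201 calls in 340 tests, Arnt 9 and Tiparp 6, where 60.0% of all tests over all genes passed. For the other alternatives the share of all genes called is not given here, so their counts cannot be set against all genes. With the identifier set in the model Ahrr was called in 4 comparisons, Cyp1b1 in 5 and Tiparp in 0, and with the sample number Tiparp in 0 (MCA-970 minus MCA-972 0.67, adjusted p = 0.0485). The cause was not tested. Each line except MCA-948 and MCA-969 lies in 1 identifier set, so the model with the set rests on those 2 lines. The test among all 5 lines called 6 genes under each of its alternatives except 4 at 1 CPM.

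Leaving out 1 tumor at a time (30 fits) gave 29 to 33 calls of the 6 genes, 88 to 98 of the other pathway genes, and 6 to 7 for Ahr, 1 to 2 for Tiparp, 7 to 8 for Cyp1b1, 4 to 7 for Aldh3a1, 2 for Arnt and 7 for Ahrr. Letters gave 0 calls throughout. No call changed sign in the results recomputed. With the identifier set in the model, 4 of 60 differences that had not been called turned: Ahr MCA-970 minus MCA-972 (−0.27 to 0.77) and MCA-969 minus MCA-970 (0.83 to −0.0095), Ahrr MCA-943 minus MCA-969 (−0.22 to 0.69) and Arnt MCA-948 minus MCA-972 (−0.02 to 0.13). Tumors with the same title code in different lines did not deviate together (mean r −0.0072 over 62 pairs, 0.0016 over 290 pairs with other codes), so the codes were not taken to pair them. The comparison of line means without W-1D and W-2D, chosen after seeing the data, again left Arnt alone at the smallest p. It uses the same 5 lines, and the share of all genes at that p is not given here. Low counts limit Ahrr (5 to 102 per tumor) and Aldh3a1 (0 to 31).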
